A study of Homo sapiens with 12 samples.

Results

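The 39 genes described here belong to homologous recombination, which repairs DNA double-strand breaks from an intact copy of the sequence, and to the Fanconi anemia pathway, which removes crosslinks between DNA strands. They were chosen by name for their known roles, but with earlier results of these data known. They represent 39 of 60580 genes listed in each library. All 39 passed the filter that left 16123 genes (20 counts or more in any library), and the lowest count of any of them was 84 (*RAD51B*). Their mRNA was measured by RNA-Seq in HCT116, an established human colorectal cancer cell line with functional p53. In *miR-34a/b/c-KO* cells (*KO* cells) the regions encoding *miR-34a* and *miR-34b/c* had been deleted with CRISPR/Cas9 in clones grown from single cells, and *WT* cells were clones that had received the Cas9 plasmid without a guide RNA. Both were exposed for 48 h to 5-FU, a pyrimidine analog that blocks thymidylate synthesis, or to DMSO as control. The sources used here do not state whether replicates of a genotype were different clones, so that all p-values measure the spread between these libraries, and features of a clone cannot be told apart from effects of the deletion.

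In homologous recombination the ends of a break are first cut back to single strands by nucleases (resection), then BRCA2, with BRCA1, BARD1 and PALB2, prepares the single strand to invade the sister chromatid. A family of paralogs (RAD51B, RAD51C, RAD51D, XRCC2 and XRCC3) and translocases of the RAD54 type assist the invasion, and the joined molecules are finally separated by a dissolving complex around BLM or by nucleases. In the Fanconi anemia pathway a core complex of several FANC proteins, with the conjugating enzyme UBE2T, attaches ubiquitin to FANCD2 and FANCI at a stalled replication fork. Because these reactions need a sister chromatid or a fork, the genes are best known from proliferating cells in S and G2 phase.

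The files of 12 libraries were deposited, but the counts labelled *WT*, 5-FU, replicate 1 were the same as those of *WT*, DMSO, replicate 3, in all 60580 genes, and the name of the latter stands in the header of the former. This library was left out, so that 11 libraries were compared and only replicates 2 and 3 stand for *WT* cells with 5-FU. The headers of these 2 libraries carry the replicate numbers 1 and 2, so that their numbering, and which library is replaced by the copy, are uncertain. Replicate numbers given here are those of the labels. Total counts ranged from 22831415 to 39064210. Expression is given as CPM (counts scaled to a common library size by upper-quartile factors) and, for each gene, library by library in the order of the replicate numbers. Differences are given on the log2 scale, with the standard error (SE) of the fold change, from the quasi-likelihood test of edgeR, and FDR is the p-value adjusted after Benjamini-Hochberg over all 16123 genes. A gene was called when FDR was below 0.05 and the fold change above 1.5. Groups of 2 or 3 libraries often do not overlap. After 5-FU, 5884 of the 16123 genes lay wholly above and 5207 wholly below DMSO in *WT* cells (3 and 29 of the 39 genes). In *KO* cells these were 4902 and 6198 (21 and 8). The *KO* cells lay wholly above *WT* cells for 4853 genes and below for 4413 with DMSO (5 and 27). With 5-FU these were 4494 and 5665 (29 and 4). Positions are those of GRCh38 (GENCODE 44). The label of the cells was checked with marker genes: 8 of 10 epithelial markers reached 20 counts in a library (*CDX1* had 0 and *CEACAM5* at most 2), and their summed level was 5280 to 5670 CPM with DMSO and 8560 to 12200 CPM with 5-FU. The sum was mostly *KRT8*, *KRT18* and *KRT19*, called higher after 5-FU in both genotypes, whereas *EPCAM* was lower (−0.39 in *WT* and −0.48 in *KO* cells). With DMSO *KRT20* was at 1.33 CPM in *KO* and 6.51 CPM in *WT* cells (means). *VIL1* was at 1.03 to 2.21 CPM in *KO* cells with 5-FU and at most 0.596 CPM elsewhere. Of 10 markers of blood, endothelial and fibroblast cells, *VWF*, *COL1A1* and *PDGFRB* reached 20 counts, while *PTPRC*, *CD3E*, *COL1A2* and *DCN* had at most 4. Their sum, mostly *COL1A1*, was 23.7 to 28.6 CPM and 56.3 to 67.0 CPM in *WT* cells without and with 5-FU, and 47.8 to 51.9 CPM and 72.2 to 73.5 CPM in *KO* cells. Its part in the results was not tested. No library had a count for *MIR34A*, *MIR34B* or *MIR34C* (0 each), so that the deletion could not be checked here. In bulk RNA, fewer cells in a phase of the cell cycle and less RNA per cell cannot be told apart.

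Since the genotypes differ in *miR-34a/b/c*, which lowers mRNAs that pair with its seed, the 3′ UTRs of the 39 genes were searched for the matching word CACTGCC, complementary to bases 2 to 8 of miR-34a-5p. The mature sequences from RefSeq are shown with these bases in capitals, and miR-34c-5p, of the same family, is named only. In miR-34b-5p the word GGCAGU is shifted by 1 base. They lie on chromosome 1 (9151735 to 9151756, minus strand) and chromosome 11 (111512950 to 111512972, plus strand) of GRCh38.p14.
miR-34a-5p: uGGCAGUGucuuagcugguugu
miR-34b-5p: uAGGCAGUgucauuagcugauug
Of the 39 genes, 5 (12.8%) had the word in the 3′ UTR of their canonical GENCODE transcript, and so had 2303 of 13093 tested genes with such a transcript (17.6%). The 7 sites are shown with the word in capitals, because they are all such matches among these genes. A match is a description of the sequence and does not show binding.
ATM site 1: catttaattccCACTGCCtgcctttggcaa
XRCC2 site 1: gttcgttgcagCACTGCCcatcagtgacag
XRCC2 site 2: aaagtgcagctCACTGCCagcgctcattta
FANCA site 1: gtgctcatcctCACTGCCgtcctcaggtgg
EME1 site 1: tggcaaaaattCACTGCCacagacaaacca
GEN1 site 1: atctgtgaagtCACTGCCaccattgacaca
GEN1 site 2: atgcagccaagCACTGCCttttggtaaaaa
On GRCh38 they lie at chr11:108366848-108366854 (*ATM*, plus strand, ending at base 1346 of 3594 in the 3′ UTR), chr7:152646857-152646863 (*XRCC2*, minus strand, base 1785 of 3866), chr7:152645093-152645099 (*XRCC2*, minus strand, base 3549 of 3866), chr16:89738251-89738257 (*FANCA*, minus strand, base 350 of 1052), chr17:50381170-50381176 (*EME1*, plus strand, base 237 of 544), chr2:17786175-17786181 (*GEN1*, plus strand, base 4242 of 7007), chr2:17786285-17786291 (*GEN1*, plus strand, base 4352 of 7007). The sites of *EME1*, the 2nd of *XRCC2* and the first of *GEN1* are followed by an A, which makes the longer 8-base match. In *KO* cells treated with DMSO, the mRNA with the site was higher for 1 of these 5 genes, *ATM* (0.67 on the log2 scale compared to *WT* cells). The other differences were −0.45 for *XRCC2*, −0.27 for *FANCA*, −0.43 for *EME1* and −0.27 for *GEN1*, all 4 with lower levels in cells without the miRNAs (FDR 0.00019, 0.00164, 0.00195 and 0.0433, edgeR), though below the minimum fold change. With 5-FU all 5 were higher in *KO* than in *WT* cells, with 0.65 for *ATM*, 0.40 for *XRCC2*, 0.70 for *FANCA*, 0.40 for *EME1* and 0.53 for *GEN1* (FDR 0.000127, 0.00157, 4.64e-07, 0.00662 and 0.00146, edgeR), of which *ATM* and *FANCA* were called. Of all 39 genes, 33 were lower in *KO* cells with DMSO and 33 higher with 5-FU. With 5-FU, 28 were higher at FDR < 0.05, against 21.6% of all genes tested. In this comparison 12 (30.8%) were called higher, against 7.58% of all genes. The part of the sites in these differences was not tested.

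After 5-FU most of these genes fell in *WT* cells (28 of 39, 71.8%, by FDR alone, against 28.3% of all genes tested). In *KO* cells 19 (48.7%) rose and 8 (20.5%) fell, against 26.6% and 33.8% of all genes. The genes that differed most between the genotypes were *EXO1*, *RAD54L* and *BLM*, which act in resection, strand invasion and the dissolution of joined DNA. The comparison of both responses asks whether loss of *miR-34a/b/c* changes what 5-FU does to a gene. In this interaction (the log2 fold change of *KO* cells minus that of *WT* cells), 21 of the 39 genes (53.8%) were called higher and 0 lower, whereas 3.42% of all genes tested were called higher and 6.66% lower. At FDR < 0.05 without a minimum fold change, 28 (71.8%) were higher and 0 lower, compared to 10.1% and 16% of all genes, and 29 had an unadjusted p below 0.05. DESeq2 called 22 higher and 0 lower. The median difference was 0.61 over the 39 genes, from −0.24 (*FANCF*) to 1.48 (*EXO1*), and −0.09 over all genes tested. In 19 genes the log2 fold change was negative in *WT* and positive in *KO* cells, in 13 negative in both and in 7 positive in both, and no gene was positive in *WT* and negative in *KO* cells. Across the 39 genes, which are not independent replicates, the responses of both genotypes had a Pearson correlation of 0.21 (Spearman 0.14), and across all 16123 genes tested 0.75 (0.69). These correlations are not directly comparable, because a narrow range of values by itself lowers a correlation. The 39 genes spanned −1.02 to 0.45 in *WT* and −0.56 to 1.05 in *KO* cells, and all genes −9.26 to 10.74 and −7.62 to 10.31. No library is shared between the responses of both genotypes. The plot of the responses by role shows this gene by gene. Without replicate 2 of *WT* cells treated with 5-FU 17 genes were called in the interaction, and with the fold change of 1.5 inside the test 11.

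In *WT* cells alone, 14 of the 39 genes (35.9%) were called lower after 5-FU and 0 higher, against 9.38% and 18.5% of all genes tested. An unadjusted p below 0.05 was found for 33, and DESeq2 called 15 lower and 0 higher. By FDR alone 28 were lower and 3 higher (*RAD51C*, *FANCE* and *MUS81*), against 28.3% and 31.9% of all genes, and the median was −0.43 (0.03 over all genes tested). The largest decreases were those of *UBE2T*, *BARD1* and *XRCC2*. The number of genes called lower was 9 without replicate 2 and 19 without replicate 3 of the cells treated with 5-FU, of which replicate 2 had the lower levels (median of the 39 genes −0.58 relative to *WT* cells treated with DMSO, against −0.37 in replicate 3). When 1 factor of unwanted variation estimated with RUVg was added, of which 98.2% of the variance lay between the treatments, 0 genes were called lower and the median was 0.93. In *KO* cells, 4 of the 39 genes (10.3%) were called higher after 5-FU, *RAD54L*, *RAD51C*, *EXO1* and *RAD51AP1*, and 0 lower, against 13.3% and 12% of all genes tested. An unadjusted p below 0.05 was found for 28, and DESeq2 called 4 higher and 0 lower. By FDR alone 19 were higher and 8 lower, against 26.6% and 33.8%, and the median was 0.23 (−0.06 over all genes tested). *FANCF* was called lower as well without replicate 2 treated with DMSO (−0.64) or without replicate 2 treated with 5-FU (−0.62).

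The summed expression of the 39 genes was 1610 to 1730 CPM in the 3 libraries of *WT* cells treated with DMSO and 1180 and 1310 CPM after 5-FU. In *KO* cells it was 1430 to 1460 CPM with DMSO and 1610 to 1670 CPM after 5-FU, a range that overlaps that of untreated *WT* cells. The sum was lower after 5-FU in *WT* and higher in *KO* cells, without overlap between treatments in either. Genes of the cell cycle moved with it. The S-phase genes of the Seurat list, without *EXO1*, *BLM* and *RAD51AP1*, which are among the 39 (40 genes), summed to 5720 to 6170, 3680 and 3810, 4280 to 4360 and 4890 to 4940 CPM in the same order of groups. Of these 40, 32 (80%) were called higher and 0 lower in the interaction, with a median of 0.84. Of the 54 G2/M-phase genes 13 (24.1%) were called higher and 0 lower, with a median of 0.35, and their sum was 8490 to 9290, 5800 and 6340, 7190 to 7450 and 6670 to 6760 CPM. In *WT* cells 77.5% of the S-phase and 55.6% of the G2/M-phase genes were called lower after 5-FU, against 35.9% of the 39 genes. With DMSO 36 of 40 and 46 of 54 were lower in *KO* cells by FDR alone, against 26 of the 39. The S-phase sum in *KO* cells was higher after 5-FU, whereas the G2/M-phase sum was lower, as the plot of sums shows. The part of the cell cycle in the results for the 39 genes was not tested.

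Among the 7 genes of break sensing and resection, 3 were called in the interaction (*EXO1*, *DNA2* and *RBBP8*), which encode nucleases of resection or their activator. *EXO1* encodes an exonuclease that extends resection (chromosome 1, 241847967 to 241895148). It was at 48.9, 53.6 and 46.4 CPM in *WT* cells treated with DMSO and 26.0 and 30.6 CPM after 5-FU. The *KO* cells had 35.8, 37.3 and 31.2 CPM with DMSO and 55.9, 57.3 and 52.8 CPM with 5-FU. All libraries of *WT* cells treated with 5-FU were thus below, and all of *KO* cells above, those of their DMSO controls. The log2 fold changes were −0.81 (SE 0.09, FDR 1.33e-06) and 0.67 (SE 0.08, FDR 2.56e-06), both called, and the difference of 1.48 (SE 0.12, FDR 6.61e-07) was the largest of the 39 genes. *DNA2*, a nuclease and helicase that resects in parallel to EXO1, was at 20.1, 21.4 and 21.5 CPM in *WT* cells treated with DMSO and 12.9 and 15.3 CPM after 5-FU, compared to 18.3, 17.3 and 16.2 CPM in *KO* cells treated with DMSO and 23.2, 25.1 and 22.1 CPM after 5-FU. Groups did not overlap, and the interaction was 1.02 (SE 0.12, FDR 2.38e-05), composed of −0.58 in *WT* and 0.44 in *KO* cells. *RBBP8* encodes CtIP, which starts resection together with the MRE11 complex. Its level was 124, 131 and 117 CPM in *WT* cells treated with DMSO and 66.0 and 64.7 CPM after 5-FU. In *KO* cells it was 132, 129 and 138 CPM with DMSO and 109, 106 and 106 CPM with 5-FU. *RBBP8* was lower after 5-FU in each library of both genotypes, with −0.92 (SE 0.06, FDR 9.29e-10) in *WT* and −0.32 (SE 0.05, FDR 4.04e-05) in *KO* cells, and the interaction was 0.61 (SE 0.08, FDR 2.99e-05). The interaction of *RBBP8* was 0.57, below the minimum fold change, when replicate 2 of *WT* cells with DMSO was left out.

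The 3 subunits of the MRE11-RAD50-NBN complex, which binds broken ends, were not called in the interaction, with 0.29 (SE 0.14, FDR 0.127) for *MRE11*, 0.00 (SE 0.10, FDR 0.988) for *RAD50* and 0.17 (SE 0.09, FDR 0.165) for *NBN*. Their responses had different signs: *NBN* fell in both genotypes (−0.52 and −0.34, FDR 6.06e-06 and 0.000104), *RAD50* fell by 0.19 in each (FDR 0.038 and 0.0256), and *MRE11* was at 0.24 (FDR 0.0522) in *WT* and rose by 0.53 (FDR 0.000118) in *KO* cells. Of the exon bases of *RAD50*, 76.9% are shared with an annotated transcript unit of the same strand (ENSG00000283782), so that its counts are uncertain. *ATM*, the kinase that signals breaks (chromosome 11, 108223044 to 108369102), was at 31.7, 29.8 and 36.7 CPM in *WT* and 53.8, 52.3 and 51.3 CPM in *KO* cells treated with DMSO. After 5-FU it was at 28.6 and 39.3 CPM in *WT* and 55.1, 52.0 and 52.4 CPM in *KO* cells. The genotypes did not overlap under either treatment, whereas the treatments overlapped in both genotypes. The interaction of *ATM* was −0.02 (SE 0.14, FDR 0.928).

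Of the 5 genes around BRCA1 and BRCA2, 4 were called in the interaction and the median difference was 0.75. *BRCA1*, which with BARD1 forms a ubiquitin ligase that promotes resection (chromosome 17, 43044295 to 43170245), was at 73.3, 77.7 and 71.6 CPM in *WT* cells treated with DMSO and 45.0 and 44.5 CPM after 5-FU. In *KO* cells the values were 46.6, 45.8 and 44.0 CPM with DMSO and 60.8, 60.1 and 55.3 CPM with 5-FU. The levels of *WT* cells with 5-FU and of *KO* cells with DMSO overlapped, both below the other groups. *BRCA1* fell by 0.73 in *WT* cells (SE 0.06, FDR 5.87e-08) and rose by 0.37 (SE 0.06, FDR 3.47e-05) in *KO* cells, an interaction of 1.10 (SE 0.09, FDR 3.31e-07). *BRCA2*, which acts between resection and strand invasion (chromosome 13, 32315086 to 32400268), was at 21.3, 22.5 and 17.6 CPM in *WT* cells treated with DMSO and 12.3 and 14.3 CPM after 5-FU. Its values in *KO* cells were 18.4, 16.7 and 16.0 CPM and 24.0, 25.0 and 21.5 CPM. Treatments did not overlap in either genotype, and the interaction was 1.08 (SE 0.15, FDR 8.48e-05). Its decrease in *WT* cells of −0.62 was −0.58, −0.54 and −0.51, below the minimum, without replicate 1 or 2 treated with DMSO or replicate 2 treated with 5-FU.

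*BARD1* showed one of the largest decreases in *WT* cells, where it was at 34, 30.7 and 32.6 CPM with DMSO and 14.6 and 18.8 CPM with 5-FU. In cells lacking the miRNAs it was at 25.9, 27.9 and 26.0 CPM and 22.3, 22.7 and 23.2 CPM. It was lower after 5-FU in every library of both genotypes, with log2 fold changes of −0.97 and −0.23, with an interaction of 0.74 (SE 0.13, FDR 0.000564), which was 0.56 and below the minimum without replicate 2 of *WT* cells treated with 5-FU. *BRIP1*, a helicase that binds BRCA1 and is also known as FANCJ, was at 36.9, 39.6 and 41.0 CPM in *WT* cells treated with DMSO and 27.6 and 34.8 CPM after 5-FU, and at 31.4, 33.7 and 32.8 CPM in *KO* cells treated with DMSO and 44.2, 43.9 and 43.1 CPM after 5-FU. Its groups did not overlap between treatments, and neither response was called (−0.33 and 0.42), although their difference was (0.75, SE 0.12, FDR 0.000275). *PALB2*, which links BRCA1 to BRCA2, had levels of 22.1 to 27.7 CPM in *WT* cells under both treatments and rose by 0.48 (FDR 0.000182) in *KO* cells. Its interaction was 0.38 (SE 0.13, FDR 0.04), below the minimum fold change.

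Among the 8 paralogs and cofactors of strand invasion, 5 were called in the interaction. This group held 3 of the 4 genes that were called higher after 5-FU in *KO* cells. Those 4 are 10.3% of the 39 genes, below the 13.3% of all genes tested. *RAD54L*, a translocase that assists strand invasion (chromosome 1, 46246461 to 46278480), was at 34.3, 36.2 and 34.1 CPM in *WT* cells treated with DMSO and 30.6 and 26.9 CPM after 5-FU. The level in *KO* cells was 26.5, 29.5 and 27.1 CPM with DMSO and at 58.1, 55.0 and 58.5 CPM with 5-FU, above all other libraries. It thus rose by 1.05 (SE 0.07, FDR 1.87e-09) in *KO* cells, whereas in *WT* cells it changed by −0.27 (SE 0.08, FDR 0.00609), with an interaction of 1.32 (SE 0.10, FDR 3.98e-07). Exons of *LRRC41* on the other strand cover 19.9% of its exon bases. *RAD51AP1*, which stimulates strand invasion, was at 31.7, 36.5 and 30.8 CPM in *WT* cells treated with DMSO and 20.7 and 24.2 CPM after 5-FU. In *KO* cells the levels were 23.6, 23.6 and 22.6 CPM and 35.7, 36.8 and 34.7 CPM. Treatments did not overlap in either genotype. The increase in *KO* cells was 0.62 (SE 0.08, FDR 4.49e-06), and the interaction 1.18 (SE 0.12, FDR 4.05e-06).

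*RAD51C*, a paralog present in both paralog complexes (chromosome 17, 58692573 to 58735611), rose in both genotypes. It was at 51.3, 54.7 and 46.7 CPM and 65.7 and 72.7 CPM in *WT* cells, and at 44.5, 44.9 and 43.0 CPM and 91.0, 85.9 and 79.2 CPM in *KO* cells, without and with 5-FU. The increases were 0.45 (SE 0.07, FDR 8.03e-05) and 0.95 (SE 0.07, FDR 5.65e-09), and the latter passed the minimum fold change. Their difference was 0.51 (SE 0.10, FDR 0.00194). *RAD54B*, a relative of *RAD54L*, was at 33.1, 31.5 and 32.6 CPM in *WT* cells treated with DMSO and 19.3 and 21.8 CPM after 5-FU. In *KO* cells it was at 34.9, 33.6 and 33.7 CPM and 45.4, 43.0 and 42.0 CPM. It was lower in all libraries of *WT* cells after 5-FU and higher in all of *KO* cells, with an interaction of 1.01 (SE 0.10, FDR 3.08e-06). Its decrease in *WT* cells (−0.66) was −0.58, below the minimum, without replicate 2 treated with 5-FU, and 66.0% of its exon bases are shared with *FSBP* on the same strand.

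*XRCC2*, a paralog that acts in a complex with *RAD51B*, *RAD51C* and *RAD51D*, was at 26.7, 27.4 and 25.0 CPM in *WT* cells treated with DMSO and 12.9 and 15.0 CPM after 5-FU. The *KO* cells had 18.3, 21.0 and 18.8 CPM and 18.4, 18.3 and 18.3 CPM, with overlap between the treatments. It fell by 0.92 in *WT* cells (SE 0.09, FDR 1.81e-07), and the interaction was 0.85 (SE 0.12, FDR 9.52e-05). *XRCC3*, which pairs with RAD51C, was at 36.8, 39.8 and 34.7 CPM and 32.3 and 27.8 CPM in *WT*, and at 32.5, 29.5 and 27.3 CPM and 36.3, 36.4 and 36.7 CPM in *KO* cells. Its interaction of 0.60 (SE 0.12, FDR 0.00186) was at the limit of the minimum fold change, and was 0.54, 0.54 and 0.49 when replicate 2 of *WT* or replicate 3 of *KO* cells with DMSO was left out, or replicate 3 of *WT* cells treated with 5-FU. Of its exon bases 76.7% overlap with *KLC1* on the opposite strand. The paralogs *RAD51B* and *RAD51D* did not differ detectably in their response (−0.16, SE 0.23, FDR 0.648 and 0.05, SE 0.11, FDR 0.789). *RAD51D* fell in both genotypes (−0.32 and −0.27, FDR 0.00312 and 0.00573). The 4 genes whose products form the complex of RAD51B, RAD51C, RAD51D and XRCC2 had these responses in *WT* cells: −0.11, 0.45, −0.32 and −0.92 in this order, with SE of 0.16, 0.07, 0.08 and 0.09.

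**Figure D1:**
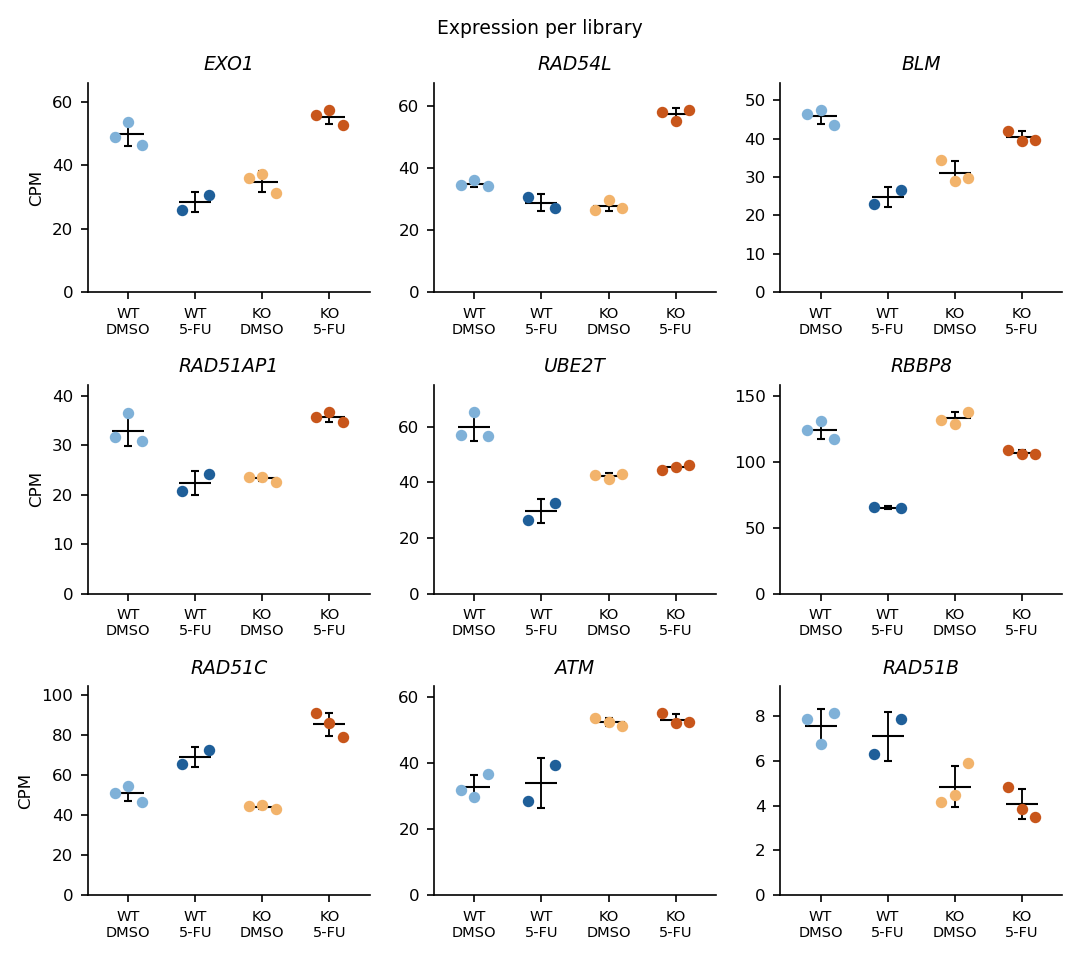
CPM of 9 genes in each library (y axes from 0, 1 point per library, black bars mean ± SD, n = 3 except n = 2 for *WT* cells with 5-FU). *EXO1*, *RAD54L*, *BLM* and *RAD51AP1* lie higher after 5-FU in *KO* cells and not in *WT* cells, *UBE2T* is lower after 5-FU in *WT* and not in *KO* cells, *RBBP8* falls in both genotypes, *RAD51C* rises in both, and *ATM* and *RAD51B* differ between the genotypes.

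Of the 9 genes for the Fanconi core complex, its anchor FANCM and the conjugating enzyme UBE2T, 4 were called in the interaction. *UBE2T* (chromosome 1, 202331544 to 202341984) had the largest decrease of the 39 genes in *WT* cells. It was at 57.1, 65.3 and 56.7 CPM in *WT* cells treated with DMSO and 26.5 and 32.6 CPM after 5-FU. Its values in *KO* cells were 42.7, 41.1 and 43.0 CPM and 44.4, 45.4 and 46.1 CPM. The log2 fold changes were −1.02 (SE 0.09, FDR 4.61e-08) in *WT* and 0.10 (SE 0.08, FDR 0.286) in *KO* cells, a difference of 1.12 (SE 0.12, FDR 5.19e-06). *FANCA*, a scaffold of the core complex, was at 88.4, 97.9 and 86.7 CPM in *WT* cells treated with DMSO and 57.2 and 57.1 CPM after 5-FU. In cells lacking the miRNAs it was at 76.2, 80.0 and 70.8 CPM and 93.2, 96.8 and 88.8 CPM. Libraries of *WT* cells treated with 5-FU were below all others, and the interaction was 0.97 (SE 0.09, FDR 1.89e-06). Of its exon bases 19.6% overlap with *ZNF276* on the other strand. *FANCB*, a core subunit encoded on the X chromosome, was at 6.24, 5.38 and 6.31 CPM and 3.71 and 4.18 CPM in *WT*, and at 5.26, 5.03 and 5.33 CPM and 6.10, 6.39 and 5.22 CPM in *KO* cells, where the treatments overlapped. The interaction was 0.79 (SE 0.18, FDR 0.00429). *FANCM*, the translocase that brings the core complex to DNA, was at 17.1, 17.9 and 17.0 CPM and 10.2 and 12.2 CPM in *WT*, and at 14.0, 14.3 and 14.2 CPM and 15.1, 14.1 and 13.2 CPM in *KO* cells, again with overlap in the latter. Its interaction of 0.63 (SE 0.13, FDR 0.0018) was 0.50 without replicate 2 of *WT* cells and 0.58 without replicate 1 of *KO* cells treated with 5-FU, both below the minimum. The decreases in *WT* cells, −0.61 for *FANCB* and −0.63 for *FANCM*, were −0.52 and −0.51 without replicate 2 treated with 5-FU, and that of *FANCB* was −0.58 and −0.57 without replicate 1 or 3 treated with DMSO.

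The other 5 core genes were not called in the interaction. *FANCE* rose in both genotypes (0.18, SE 0.07, FDR 0.0463 and 0.46, SE 0.07, FDR 1.88e-05, edgeR), with a difference of 0.28 (FDR 0.0486). *FANCG* was lower in *WT* cells (−0.33, FDR 0.00165) and at 0.07 (FDR 0.422) in *KO* cells, with a difference of 0.40 (SE 0.10, FDR 0.011). *FANCC* fell by 0.30 and 0.33 on the log2 scale (interaction −0.03, SE 0.11, FDR 0.849). *FANCL*, the ubiquitin ligase of the complex, was at −0.11 and −0.10 (FDR 0.268 and 0.29), and its interaction was 0.01 (SE 0.11, FDR 0.952). *FANCF* fell in both, with log2 fold changes of −0.32 (FDR 0.0393) and −0.56 (FDR 0.00126), and had the lowest interaction of the 39 genes (−0.24, SE 0.18, FDR 0.344). Among the 7 core subunits the interactions ranged from −0.24 (*FANCF*) to 0.97 (*FANCA*).

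The targets of the core complex, FANCD2 and FANCI, form the ID complex that clamps onto DNA at a crosslink. *FANCI* (chromosome 15, 89243945 to 89317261) was at 151, 162 and 151 CPM in *WT* cells treated with DMSO and 98.6 and 112 CPM after 5-FU. The level in *KO* cells was 103, 104 and 94.7 CPM and 133, 139 and 129 CPM. It was lower after 5-FU in *WT* cells and higher in *KO* cells, in each library, and the interaction was 0.97 (SE 0.09, FDR 1.12e-06). *FANCD2* was at 65.4 to 75.7 CPM in *WT* cells under both treatments (0.07, SE 0.07, FDR 0.391) and rose by 0.41 (SE 0.06, FDR 2.09e-05) in *KO* cells. Its interaction was 0.34 (SE 0.09, FDR 0.0111), under the minimum fold change. The increase in *KO* cells was 0.41 for both subunits, while in *WT* cells *FANCI* fell by 0.56 (FDR 1.46e-06).

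Among the 6 genes of dissolution and resolution, *BLM*, *EME1* and *GEN1* were called in the interaction. *BLM*, the helicase that dissolves double junctions with TOP3A, RMI1 and RMI2 (chromosome 15, 90717346 to 90816166), was at 46.4, 47.4 and 43.6 CPM in *WT* cells treated with DMSO and 22.9 and 26.6 CPM after 5-FU. In *KO* cells it was at 34.5, 29.0 and 29.7 CPM and 42.1, 39.4 and 39.6 CPM. Treatments did not overlap, and the log2 fold changes of −0.89 (SE 0.09, FDR 3.11e-07) and 0.38 (SE 0.08, FDR 0.000611) gave a difference of 1.27 (SE 0.12, FDR 2.08e-06). *EME1*, the partner of the nuclease MUS81, was at 35.7, 37.4 and 30.5 CPM in *WT* cells treated with DMSO and 21.8 and 23.9 CPM after 5-FU, and at 23.4, 28.6 and 24.9 CPM and 27.7, 33.8 and 28.8 CPM in *KO* cells, where the treatments overlapped. Its interaction was 0.83 (SE 0.15, FDR 0.000759), and its decrease in *WT* cells of −0.59 was −0.57, −0.53 and −0.53, below the minimum, without replicate 1 or 2 treated with DMSO or replicate 2 treated with 5-FU. Exons of *LRRC59* on the other strand cover 16.4% of its exon bases. *GEN1*, a nuclease that cuts junctions, was at 29.1, 34.9 and 31.2 CPM and 18.9 and 26.9 CPM in *WT*, and at 26.1, 26.0 and 26.6 CPM and 31.7, 34.9 and 31.8 CPM in *KO* cells. The 2 libraries of *WT* cells with 5-FU lay far apart, and the interaction of 0.80 (SE 0.16, FDR 0.00162) was 0.56 without replicate 2.

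*MUS81* itself was not called in any comparison (interaction −0.12, SE 0.12, FDR 0.469), and 14.1% of its exon bases overlap other genes. Thus *EME1* was lower in *WT* cells after 5-FU while its partner was at 0.21 (SE 0.09, FDR 0.0463). *RMI1* was called lower in *WT* cells (−0.82, SE 0.08, FDR 2.88e-07), from 42.8 to 46.1 CPM to 23.0 and 27.5 CPM, and fell by 0.25 in *KO* cells (FDR 0.00601). Its interaction of 0.57 (SE 0.11, FDR 0.00131) was below the minimum fold change. *RMI2* was at −0.19 and 0.15 (FDR 0.0523 and 0.0958), with an interaction of 0.34 (SE 0.11, FDR 0.0322). *POLQ* encodes polymerase theta, which joins resected ends without homologous recombination. It was at 32.4, 35.1 and 33.1 CPM in *WT* cells treated with DMSO and 22.3 and 27.5 CPM after 5-FU. The *KO* cells had 24.0, 25.5 and 23.3 CPM and 29.7, 30.5 and 27.7 CPM, and neither genotype had overlapping treatments. The interaction of 0.71 (SE 0.12, FDR 0.000502) was 0.56 without replicate 2 of *WT* cells treated with 5-FU. *HELQ*, a helicase, was at 10.7 to 12.7 CPM in all 11 libraries, with an interaction of 0.04 (SE 0.11, FDR 0.803).

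Compared with *WT* cells treated with DMSO, 1 of the 39 genes was called higher in *KO* cells (*ATM*, 2.56%, against 9.1% of all genes tested) and 4 lower (*BRCA1*, *RAD51B*, *FANCI* and *FANCF*, 10.3%, against 4.97%). By FDR alone 3 were higher and 26 (66.7%) lower, against 24.5% and 21.9%, and the median was −0.27 (0.03 over all genes tested). *BRCA1* was −0.71 (SE 0.06, FDR 5.23e-08) and *FANCI* −0.62 (SE 0.06, FDR 2.55e-07). Without replicate 3 of *KO* cells treated with DMSO, the value of *FANCI* was −0.58, below the minimum. With 5-FU, 12 genes (30.8%) were called higher in *KO* than in *WT* cells and 2 (5.13%) lower, against 7.58% and 10.6% of all genes tested. By FDR alone these were 28 and 2, against 21.6% and 28%, and the median was 0.39 (−0.05 over all genes tested). The largest differences were those of *RAD54B* (1.08, SE 0.08, FDR 1.2e-08), *RAD54L* (0.99, SE 0.08, FDR 4.4e-08) and *EXO1* (0.97, SE 0.09, FDR 4.12e-07). The other 8 genes called higher with 5-FU and not with DMSO were *BRCA2*, *RAD51AP1*, *FANCA*, *FANCB*, *BLM*, *RBBP8*, *UBE2T* and *DNA2*, at 0.59 to 0.82. Without replicate 2 of *WT* cells treated with 5-FU, the values of *ATM*, *UBE2T*, *RAD51AP1* and *FANCB* fell below the minimum (0.44, 0.48, 0.57 and 0.50), as did *FANCB* without replicate 1 or 2 of *KO* cells treated with 5-FU (0.57 and 0.53). In total 12 genes were called higher with replicates 2 and 3 of *WT* cells treated with 5-FU, 8 without replicate 2 and 17 without replicate 3.

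*ATM*, *RAD51B* and *FANCF* were called between the genotypes under both treatments and did not differ detectably in their response. *NBN* was higher in *KO* cells under both treatments as well (0.35 and 0.52), but below the minimum fold change. For *ATM*, whose levels are given above, the differences were 0.67 (SE 0.10, FDR 3.32e-05) with DMSO and 0.65 (SE 0.11, FDR 0.000127) with 5-FU. *RAD51B* (chromosome 14, 67819779 to 68730218) was at 7.87, 6.75 and 8.14 CPM and 6.32 and 7.88 CPM in *WT*, and at 4.18, 4.47 and 5.92 CPM and 4.84, 3.87 and 3.51 CPM in *KO* cells. *FANCF* (chromosome 11, 22622533 to 22625823) was at 12.3, 9.75 and 9.73 CPM and 8.29 and 8.71 CPM in *WT*, and at 6.89, 6.22 and 7.90 CPM and 4.48, 5.13 and 4.68 CPM in *KO* cells. For both genes all libraries of *KO* cells lay below those of *WT* cells with the same treatment, with −0.64 (SE 0.15, FDR 0.00266) and −0.80 (SE 0.17, FDR 0.00105) for *RAD51B* and −0.59 (SE 0.12, FDR 0.000638) and −0.83 (SE 0.14, FDR 0.0001) for *FANCF*. With DMSO the value of *RAD51B* was −0.58, −0.54 and −0.58, and below the minimum, without replicate 3 of *WT* or replicate 1 or 2 of *KO* cells, and that of *FANCF* was −0.47, −0.58 and −0.51 without replicate 1 of *WT* or replicate 1 or 2 of *KO* cells.

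For each of the 39 genes, the median over the 20 nearest tested genes on each side, without the 39 genes themselves, was taken to see whether neighbors differed between the genotypes as well. For *RAD54B* and *NBN*, both on chromosome 8 (94371960 to 94475115 and 89924515 to 90003228), these neighbors were higher in *KO* cells under both treatments. The median log2 fold change around *RAD54B* was 0.38 with DMSO and 0.33 with 5-FU, with 35 and 37 of 39 neighbors higher, and that around *NBN* was 0.29 and 0.29, with 35 and 34 of 39 higher. *NBN* itself was at 0.35 and 0.52 (FDR 0.000154 and 1.04e-05, edgeR) and *RAD54B* at 0.07 and 1.08. The 2 windows overlap. For the other 37 genes the medians of neighbors were between −0.19 and 0.20. They were −0.09 and −0.19 for *ATM*, 0.07 and 0.04 for *RAD51B*, and −0.11 and −0.10 for *FANCF*, the 3 genes called in both treatments. The part of the segment in the differences of *RAD54B* and *NBN* was not tested.

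Levels of different genes were compared per length of exon (reads per kb, scaled as CPM, mean of the libraries of a group). In *WT* cells treated with DMSO they ranged from 0.45 (*FANCB*) to 30.9 (*UBE2T*), followed by *RBBP8* at 24.4 and *RMI1* at 13.0. *RAD51AP1* (12.9) and *EXO1* were next. At the lower end were *FANCM* (0.909), *ATM* (0.836) and *FANCL* (0.756). After 5-FU *UBE2T* was at 15.3 and *RBBP8* at 12.9 in *WT* cells, and at 23.5 and 21.1 in *KO* cells, and these genes had the highest values in all 4 states, led by *RBBP8* in *KO* cells with DMSO (26.2 against 21.9) and *UBE2T* in the others. *RAD54L* was the 10th of the 39 genes in *WT* cells with DMSO (8.55) and shared the 3rd place with *RAD51AP1* in *KO* cells with 5-FU (both 14.0). *FANCB* was the lowest in all 4 states. The length is that of all annotated exons of a gene, so that levels of genes with many annotated transcripts are understated. The plot of levels per length gives all 39 genes.

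The 250 bases before the start sites were searched on both strands for short words of cell cycle promoters, in 34 of the 39 genes with a RefSeq entry in the table used (GRCh38.p14). CCAAT was found for 17 (50.0%), and for 41.3% of 11177 tested genes and 37.0% of all 27305 promoters. The CHR words TTTGAA and TTCGAA were found for 6 (17.6%, 13.3% and 17.2%), and the E2F words TTTCCCGC, TTTCGCGC, TTTGCCGC and TTTGGCGC for 3 genes (8.82%, 5.48% and 3.4%), *FANCA*, *FANCC* and *RMI1*. Of the 3 with an E2F word, *FANCA* was called in the interaction and *FANCC* and *RMI1* were not. Among the 18 genes called in the interaction with an entry, CCAAT was found for 10 (55.6%), a CHR word for 3 (16.7%) and an E2F word for 1 (5.56%).

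Of 60 other genes of these pathways, 59 were tested, and 13 (22%) were called higher and 1 (1.69%) lower in the interaction, against 3.42% and 6.66% of all genes tested, with a median of 0.24. They included *MCM8*, a helicase (1.08), and *FIGNL1*, an ATPase (0.90). The only decrease was that of *SLX1A* (−0.85), whose counts are uncertain because *SLX1B* is a near-identical copy. The single-strand binding subunits *RPA1*, *RPA2* and *RPA3*, needed in all these reactions, were at 0.50, 0.57 and 0.35 (FDR 7.41e-05, 0.000239 and 0.0307, edgeR). They were below the minimum fold change and not called. After 5-FU *RPA2* and *RPA3* were called lower in *WT* cells (−0.80 and −0.68), and *RPA1* was not (−0.21). These and the next genes were chosen after their values were seen. In *WT* cells 13 of the 59 (22%) were called lower and 3 (5.08%) higher after 5-FU, against 9.38% and 18.5% of all genes tested. In *KO* cells 4 (6.78%) were lower and 2 (3.39%) higher, both below the 12% and 13.3% of all genes. *CHEK1*, the kinase of the replication checkpoint, was called lower in both (−1.25 and −0.66), and so were *ABRAXAS1* (−1.20 and −1.30), a partner of BRCA1, and *PARPBP* (−0.65 and −0.61). *CHEK1* was also called higher in the interaction (0.59, FDR 0.000241, edgeR), whereas *ABRAXAS1* and *PARPBP* were not called in it (−0.10 and 0.04). In the comparison of genotypes 2 (3.39%) were called higher and 2 (3.39%) lower with DMSO, against 9.1% and 4.97% of all genes, and 3 (5.08%) higher and 0 lower with 5-FU, against 7.58% and 10.6%.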

How the data were processed

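Read counts per gene were deposited by the authors as 1 table per library, made with the CLC Genomics Workbench from paired-end, random-primed RNA-Seq reads aligned to GRCh38 (hg38) with an ENSEMBL annotation, and were not normalized. Whether the counting used the strand is not given in the sources used here. Groups were taken from the labels. Genes reaching 20 counts in any library entered the fit, libraries were scaled by upper quartiles, and 1 model of 4 group means over 11 libraries was fitted by the quasi-likelihood method (two-sided) of edgeR 4.0.16 in R 4.3.3. The 4 comparisons and the interaction were taken from this model, with Benjamini-Hochberg adjustment over 16123 genes, and a gene was called at FDR < 0.05 and a fold change > 1.5. The biological coefficient of variation was 6.72%. CPM and reads per kb used the same scaling and, for length, the exons of GENCODE 44. Total counts were 22831415 to 39064210 (median 25698417) per library.

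Alternatives were TMM factors, DESeq2 1.42.0, other filters on low counts, the minimum fold change inside the test (glmTreat) or none, 1 RUVg factor (11123 control genes), a replicate block, the copied library kept under its label, and leaving out each library. A block by the numbers in the file headers was chosen after seeing the data. Replicate numbers were not treated as pairs, since same-numbered libraries did not deviate together. In data simulated for the comparison of genotypes with DMSO (15552 genes), 84% to 90% of genes changed by 1 on the log2 scale and 97.9% to 98% of those changed by 2 were called, with 7 false calls.

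Values in every library are given for genes called in the interaction and for the 3 largest and 3 smallest fold changes called in each other comparison (25 genes), the others by ranges, counts or single values. The 39 genes and all lists were chosen with earlier results of these data known. Sequences are from RefSeq (GRCh38.p14) and the 3′ UTRs of GENCODE 44. Promoter sequences are not printed. Of 60 other pathway genes, *FIRRM* was not analysed here and 1 is not reported here by name.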

Additional observations from a re-analysis of the deposited data

Results flagged for a closer look

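The response to 5-FU differed between *WT* and *KO* cells, by the interaction term of edgeR itself, in 21 of the 39 genes (53.8%). Of all genes tested 3.42% were called higher and 6.66% lower in it. In each of the 21 genes the log2 fold change after 5-FU was higher, or less negative, in *KO* cells. The differences (log2 fold change of *KO* minus that of *WT* cells) were 1.48 for *EXO1*, 1.02 for *DNA2* and 0.61 for *RBBP8* among the genes of resection. Around BRCA1 and BRCA2 they were 1.10 for *BRCA1*, 1.08 for *BRCA2*, 0.74 for *BARD1* and 0.75 for *BRIP1*. Among the cofactors of strand invasion they were 1.32 for *RAD54L*, 1.18 for *RAD51AP1*, 1.01 for *RAD54B*, 0.85 for *XRCC2* and 0.60 for *XRCC3*. In the Fanconi anemia pathway they were 1.12 for *UBE2T*, 0.97 for *FANCA*, 0.97 for *FANCI*, 0.79 for *FANCB* and 0.63 for *FANCM*. The remaining genes were *BLM* with 1.27, *EME1* with 0.83, *GEN1* with 0.80 and *POLQ* with 0.71. The differences of *BARD1*, *FANCM*, *GEN1*, *POLQ*, *RBBP8* and *XRCC3* fell below the minimum fold change in at least 1 fit with 1 library left out. No other reason to look again applied, since groups of 2 or 3 libraries were not tested for outlying values.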

How the results depend on the processing

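Each direction below is that of the 39 genes. With TMM factors or DESeq2 all counts of called genes were within 1.5 times those reported, and the median of the interaction was 0.67 and 0.69. With the minimum fold change inside the test (glmTreat), 0 genes were called higher and 0 lower in *KO* cells with DMSO, 3 higher and 0 lower with 5-FU, 8 lower after 5-FU in *WT* cells, 2 higher after 5-FU in *KO* cells, and 11 in the interaction. With no minimum fold change these were 3 and 26, 28 higher, 28 lower and 3 higher, and 19 higher and 8 lower. With 1 RUVg factor, 2 genes were called higher and 1 lower with DMSO (median −0.07), 0 lower after 5-FU in *WT* cells (median 0.93) and 0 higher in *KO* cells (median 1.55), and 11 in the interaction (median 0.41). In *WT* cells the sign was then reversed for *BARD1* (0.94), *BLM* (2.29), *BRCA2* (2.20), *EXO1* (1.34), *FANCM* (1.24), *RAD54B* (0.48), *UBE2T* (2.38) and *XRCC2* (0.79), each with an FDR of at least 0.262. Of the variance of the RUVg factor 98.2% lay between the treatments, so that this fit can hardly separate the factor from 5-FU. With the copied library kept under its label, 0 genes were called lower after 5-FU in *WT* cells (median −0.28), 5 higher in *KO* cells with 5-FU (median 0.21) and 5 in the interaction (median 0.39).

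Leaving out 1 library at a time gave 2 to 4 genes lower with DMSO, 9 to 19 lower after 5-FU in *WT* cells (median −0.58 to −0.37), 0 to 1 lower after 5-FU in *KO* cells (median 0.14 to 0.29), 8 to 17 higher with 5-FU (median 0.29 to 0.46), and 17 to 22 in the interaction (median 0.56 to 0.70). With a replicate block, 13 genes were lower after 5-FU in *WT* cells, 11 higher with 5-FU and 20 in the interaction, with *BRCA2* (−0.58), *FANCB* (0.57) and *XRCC3* (0.58) no longer called, and by the numbers in the file headers 17 were lower in *WT* cells. *WT* cells treated with 5-FU rest on 2 libraries, and the lowest count of the 39 genes in any library was 84.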
